A study of Mus musculus with 4 samples.

Results

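The gamma-crystallin genes were examined in mouse embryonic stem cells (ESCs), a tissue-culture cell type far from the eye lens in which these genes are best known. The set comprised 7 genes, the 6 clustered genes Cryga, Crygb, Crygc, Crygd, Cryge and Crygf of chromosome 1 and the distant Crygs of chromosome 16. Probes were assigned to them by matching the transcript accession on the array to RefSeq, which gave 10 of the 39409 probes analysed (9 for the clustered genes and 1 for Crygs) and 7 of 19748 named genes. The family was picked with its haploid and diploid signals already known, so its differences between the groups are given as a description and not as a test. The samples were 2 parthenogenetic haploid ESC samples and 2 parthenogenetic diploid ESC samples, in each group labelled line 1 and line 2, all female. Parthenogenetic cells come from an unfertilised egg, so both groups carry a maternal genome only, and in culture haploid mouse ESCs often double their genome to become diploid. The labels do not say whether haploid and diploid lines of the same number share an origin, and culture conditions are not described there. The series' title names the G2/M transition, and its design text states that each cell type was studied in independent experiments.

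Gamma-crystallins are small, long-lived structural proteins of the eye lens. They fold into a pair of domains built from Greek key motifs and pack at very high concentration in lens fibre cells, where they raise the refractive index. In mice, dominant mutations of the clustered genes cause cataract. Their promoters are short and are known from lens studies to respond to transcription factors of the Maf, Sox and Pax6 families. Gamma-S, the product of Crygs, is a more distant relative found mainly in the later-formed outer fibres of the lens.

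The promoter windows are shown first because they set out what the clustered genes share outside the array measurement. All 7 members matched a RefSeq promoter (assembly GRCm38.p6). Each line runs 5′ to 3′ from 100 bases before to 30 bases after the annotated start, and capitals mark CTTTTGTG (CTTTGTG in Crygb), TATATA and, in Crygs, TATAAA.
Cryga (chr1:65103334-65103463, minus strand): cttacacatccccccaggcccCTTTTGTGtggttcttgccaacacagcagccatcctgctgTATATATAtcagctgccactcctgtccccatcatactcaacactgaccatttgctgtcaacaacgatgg
Crygb (chr1:65082261-65082390, minus strand): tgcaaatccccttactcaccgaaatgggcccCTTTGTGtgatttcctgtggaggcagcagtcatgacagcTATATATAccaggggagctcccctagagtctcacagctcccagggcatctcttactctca
Crygc (chr1:65073503-65073632, minus strand): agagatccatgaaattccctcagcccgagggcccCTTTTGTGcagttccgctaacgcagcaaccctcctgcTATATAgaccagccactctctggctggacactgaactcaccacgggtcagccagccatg
Crygd (chr1:65063411-65063540, minus strand): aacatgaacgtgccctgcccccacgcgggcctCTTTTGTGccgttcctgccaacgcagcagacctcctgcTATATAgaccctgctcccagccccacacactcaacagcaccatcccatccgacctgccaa
Cryge (chr1:65051134-65051263, minus strand): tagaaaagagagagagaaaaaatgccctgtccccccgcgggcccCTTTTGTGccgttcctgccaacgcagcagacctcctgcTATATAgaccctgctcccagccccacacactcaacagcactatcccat
Crygf (chr1:65926422-65926551, plus strand): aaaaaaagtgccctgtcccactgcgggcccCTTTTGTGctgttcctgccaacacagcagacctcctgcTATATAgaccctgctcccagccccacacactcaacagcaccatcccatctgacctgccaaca
Crygs (chr16:22811381-22811510, minus strand): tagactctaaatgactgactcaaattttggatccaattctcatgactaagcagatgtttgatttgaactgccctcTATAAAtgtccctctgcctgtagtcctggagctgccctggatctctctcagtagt

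The run CTTTTGTG was the longest stretch of letters common to the promoter windows of Cryga, Crygc, Crygd, Cryge and Crygf, at 8 bases. It began 56 to 79 bases before the start. With either strand searched over windows from 250 bases before to 50 bases after the start, it was held by 5 of the 6 clustered genes and by 1.37% of 32851 RefSeq promoters. Crygb held the shorter CTTTGTG in the corresponding place, 69 bases before the start, a run found in 6.12% of promoters. TATATA stood downstream of it in all 6 clustered promoters and in 5.67% of all promoters. It overlaps a second copy of itself in Cryga and Crygb, and Cryge and Crygf hold another copy outside the printed stretch. Crygs held neither run and had TATAAA 25 bases before its start, as 13.6% of promoters hold that run somewhere. The letters were chosen from these promoters, so the shares describe how common each run is and test nothing.

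The promoters of Cryge and Crygf were the most alike, with 83.1% identical columns in a global alignment of the 300-base windows. Crygd shared 70.7% with Crygf and 67.1% with Cryge, and the same 55 bases stood unbroken in all 3 windows. The other pairs of clustered genes lay between 51.9% and 58.2%. Crygs lay between 43.8% and 48.6% from each clustered gene. These windows lie mostly before the start, so the shares do not measure how alike the transcripts are. Transcripts of closely related genes can bind each other's probes on an array. Neither transcript nor probe sequences were compared here, so how far each probe reads its own gene is uncertain for every member.

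Each array measured 1 sample in 1 colour. Of the probes, 53.6% and 59.7% were well above background on the haploid arrays and 55.1% and 65.0% on the diploid arrays, and none was saturated. Values are log2 of the processed signal minus the log2 of that array's 75th percentile, so 0 is a signal at the 75th percentile, and levels of different probes cannot be set against each other. Across the 17962 features (genes or unnamed accessions) that passed the filter on dim probes (both arrays of a group well above background, in at least 1 group), arrays correlated at 0.991 between the haploid samples, 0.993 between the diploid samples and 0.987 to 0.989 between groups. Over all features the median difference (haploid minus diploid) was 0.02. All 8 markers of ESCs were well above background on every array. None passed the limma test between groups (0 at an unadjusted p under 0.05), but 2 samples per group cannot show that levels are equal. Pou5f1 differed by -0.03 ± 0.18, Sox2 by 0.09 ± 0.17 and Nanog by -0.37 ± 0.17. These ± values are the SE of the limma fit (n = 2 per group), as is every ± below unless SD is named.

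Of the 7 gamma-crystallin genes, 6 gave signals well above background. After scaling, all 6 were brighter on both haploid arrays than on either diploid array. The 5 clustered genes measured, Cryga, Crygc, Crygd, Cryge and Crygf, lay 1.77-fold to 2.63-fold higher in haploid cells, with a median log2 difference of 1.16. Crygs lay 1.84-fold higher, within the range of the clustered genes. None of the 4 arrays showed Crygb well above background. In RNA from whole cultures, a few cells with much of a transcript and many cells with little of it cannot be told apart.

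**Figure D1:**
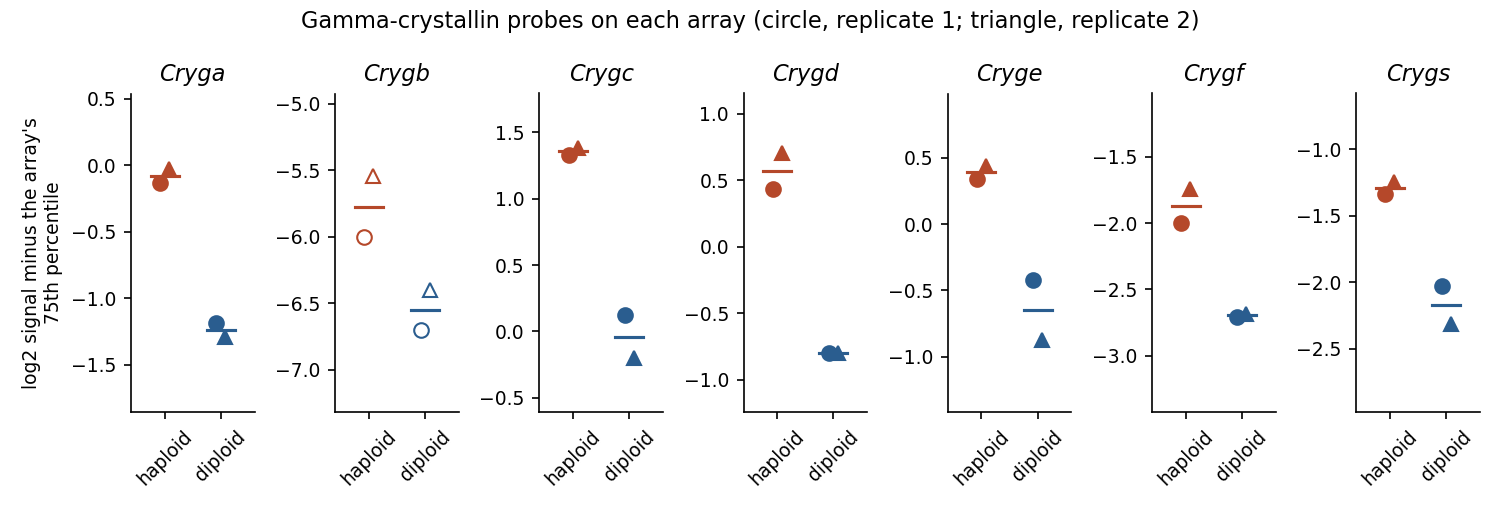
Signal of each gamma-crystallin gene on each array (log2 of the processed signal minus the array's 75th percentile), with haploid arrays at left in red and diploid arrays at right in blue and bars at the group means (n = 2 per group). Every panel spans the same log2 height, and open symbols mark Crygb, which no array showed well above background. In each panel both haploid values lie above both diploid values. Before scaling, the signals of Crygb and Crygf overlapped between the groups.

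Crygc, encoding gamma-C, had the largest reported difference of the family, just above that of Crygd. Its brightest probe read 1.33 and 1.38 in haploid samples 1 and 2, against 0.12 and -0.20 in diploid samples 1 and 2. The haploid arrays nearly coincided and the diploid arrays were 0.33 apart, with no overlap between the groups. The difference was 1.40 ± 0.19, or 2.63-fold. A second Crygc probe read -0.36 and -0.34 in haploid samples, against -1.57 and -1.74 in diploid samples, a difference of 1.31 ± 0.17. The third read -0.06 and 0.19 in haploid samples, against -1.12 and -1.15 in diploid samples, a difference of 1.20 ± 0.18. The 3 probes of Crygc thus differed from each other by little more than their SE.

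Crygd, encoding gamma-D, could not be ranked against Crygc. Its signal was 0.43 and 0.71 in haploid samples, against -0.80 and -0.80 in diploid samples. Both diploid arrays gave the same value to 2 decimals, and both haploid arrays stood more than 1.2 log2 units above it. The difference was 1.37 ± 0.18, or 2.58-fold. It exceeded that of Crygc with the probes of a gene averaged (1.37 for Crygd and 1.30 for Crygc), without haploid replicate 1 (1.51 and 1.42) and without diploid replicate 2 (1.37 and 1.23).

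Cryga, encoding gamma-A, read -0.14 and -0.03 in haploid samples, against -1.19 and -1.29 in diploid samples. The arrays within each group lay within 0.11 of each other, so the groups stood well apart. The difference was 1.16 ± 0.17, or 2.23-fold.

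Cryge, encoding gamma-E and lying at the outer end of the cluster, read 0.34 and 0.44 in haploid samples, against -0.42 and -0.87 in diploid samples. Diploid replicate 1 was 0.45 above diploid replicate 2, the widest gap between arrays of a group among the 6 genes. The groups did not overlap, and the difference was 1.03 ± 0.21, or 2.05-fold. Without diploid replicate 1 it was 1.26, and without diploid replicate 2 it was 0.81.

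Crygf, encoding gamma-F, showed the smallest reported difference among the clustered genes (0.83, against 0.81 for Cryge, without diploid replicate 2) and, unlike Crygc, an uneven one between probes. Its brighter probe read -2.00 and -1.75 in haploid samples, against -2.70 and -2.68 in diploid samples, a difference of 0.82 ± 0.18, or 1.77-fold. Its other probe was dim, not well above background on diploid replicate 1, and read -4.64 and -4.38 in haploid samples, against -4.83 and -5.15 in diploid samples. That probe differed by 0.48 ± 0.20. Once scaled by array, both probes placed the haploid arrays above the diploid arrays, by unequal amounts. Unscaled, the signals of both probes overlapped between the groups. The brighter read 132 and 165 intensity units in haploid samples, against 94.6 and 141 in diploid samples. The dim probe read 21.1 and 26.6 in haploid samples, against 21.7 and 25.5 in diploid samples.

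Crygb, encoding gamma-B, gave processed signals of 8.20 and 11.9 intensity units in haploid samples, against 5.93 and 10.7 in diploid samples. None was well above background, so no fold is given. Unscaled, these signals overlapped between the groups, with haploid sample 1 below diploid sample 2. Scaled by array, they ran -6.01 and -5.54 in haploid samples, against -6.70 and -6.40 in diploid samples, and only then stood apart. The 75th percentile that scaled each array was 526 and 553 intensity units on the haploid arrays, against 617 and 907 on the diploid arrays. Whether the scaled order reflects Crygb transcript was not tested.

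Crygs, encoding gamma-S and lying on another chromosome, read -1.34 and -1.25 in haploid samples, against -2.03 and -2.32 in diploid samples. The haploid arrays were close together and the diploid arrays 0.29 apart, without overlap. The difference was 0.88 ± 0.18, or 1.84-fold. It lay between the differences of Crygf and Cryge, and whether Crygs differs from the clustered genes was not tested.

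**Figure D2:**
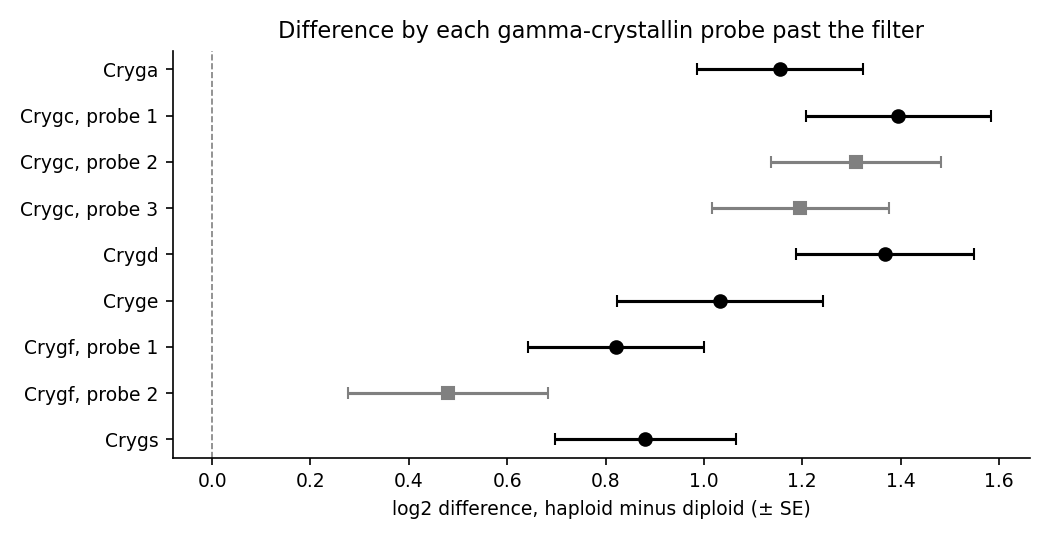
Log2 difference, haploid minus diploid, for each of the 9 gamma-crystallin probes past the filter on dim probes, with bars of ± 1 SE of the limma fit (n = 2 per group). Black circles are the probe that stands for its gene (the brightest) and grey squares the others. All 9 lie above 0, from 0.48 for the dim Crygf probe to 1.40 for the brightest Crygc probe.

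Set against all features, 154 of 17962 had a larger difference than Crygc, 161 than Crygd, 245 than Cryga, 329 than Cryge, 478 than Crygs and 571 than Crygf. In limma's test over all features with Benjamini-Hochberg adjustment, 0 of the 6 measured members passed the threshold of 0.05, where 0.111% of all features did (20 features). At an unadjusted p under 0.05 the counts were 6 of 6 members and 2104 features. Both haploid values lay above both diploid values in 6 of 6 measured members and in 26.0% of all features. Since the family was picked on this contrast, nothing is read from either count. Differences also ran with brightness: over 10 classes of features by mean signal, the median went up from -0.17 in the dimmest to 0.22 in the brightest, while the members lay in the classes numbered 3 to 7 from the dim end, whose medians ran from -0.04 to 0.01.

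Taken array by array, which uses the same 4 arrays again and adds no support, the median difference over the 5 measured clustered genes was 1.05 for haploid replicate 1 minus diploid replicate 1 and 1.21 for haploid replicate 1 minus diploid replicate 2. For haploid replicate 2 it was 1.16 against diploid replicate 1 and 1.31 against diploid replicate 2. The lowest single value among these comparisons was 0.68, for Crygf. All 6 measured members were somewhat brighter on haploid replicate 2 than on haploid replicate 1, by at most 0.27.

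The difference was next set beside the genes around the cluster, to see how far along the chromosome it reached. In RefSeq order, Cryge, Crygd, Crygc, Crygb and Cryga follow each other with no other named protein-coding gene between them, and Idh1, Pikfyve and Pth2r stand between Cryga and Crygf. Of the 14 neighbours examined (5 on each side of the cluster and 2 on each side of Crygs), 10 were measured, their median difference was -0.09, and 0 passed the limma test (0 at an unadjusted p under 0.05). On the side of Cryge, the methyltransferase gene Mettl21a differed by -0.10 ± 0.17, the cyclin-like gene Ccnyl1 by -0.30 ± 0.18, the Wnt receptor gene Fzd5 by -0.33 ± 0.24 and Plekhm3 by -0.03 ± 0.23. On the side of Crygf, Map2, encoding a neuronal microtubule protein, differed by 0.31 ± 0.20, Rpe, an enzyme of the pentose phosphate pathway, by 0.09 ± 0.16, Kansl1l by -0.57 ± 0.36 and Acadl, a fatty acid oxidation enzyme, by -0.08 ± 0.22. Kansl1l was well above background on 1 of 2 haploid arrays, and was at -0.058 without haploid replicate 1 and -1.07 without haploid replicate 2, while Fzd5 was at -0.08 without diploid replicate 2 and Map2 at -0.92 with normexp on all spots. No array showed Akr1cl or Unc80 well above background.

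Inside the interval, Idh1, the cytosolic isocitrate dehydrogenase gene, read -0.41 and -0.55 in haploid samples, against -0.76 and -0.68 in diploid samples, a difference of 0.24 ± 0.17 (limma adjusted p = 0.599). Pikfyve and Pth2r did not pass the filter. Idh1, Pikfyve and Pth2r were looked at after the values of the cluster were known. Next to Crygs, the transcription factor gene Etv5 differed by 0.31 ± 0.21 and Tbccd1 by -0.09 ± 0.17, while Dgkg and Dnajb11 did not pass the filter. As reported, no measured neighbour on either chromosome reached 0.82, the smallest difference of a gamma-crystallin by its brightest probe. With normexp on all spots, Etv5 was at 0.73, above Cryga (0.51), Crygs (0.02) and Crygf (-0.18). A difference between members and neighbours was not tested.

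**Figure D3:**
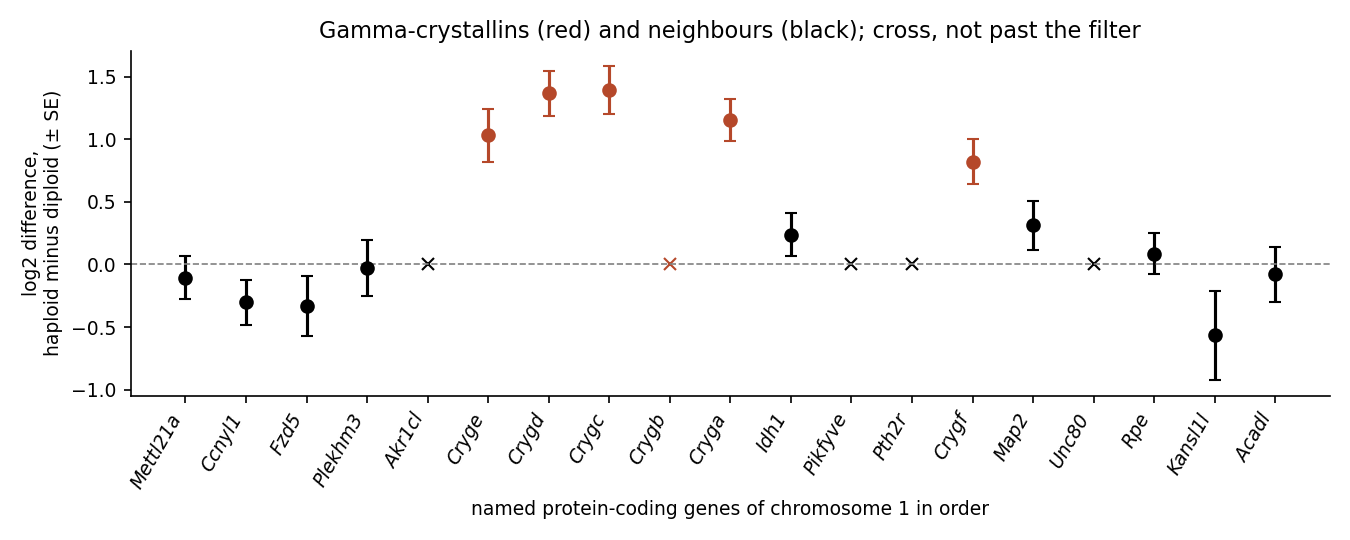
Log2 difference, haploid minus diploid (± SE, n = 2 per group), of the clustered gamma-crystallin genes in red and of named protein-coding neighbours in black, in their order along chromosome 1 and evenly spaced. Crosses at 0 mark genes that did not pass the filter and have no value. The 5 measured gamma-crystallins lie at 0.82 to 1.40, Idh1 between them at 0.24 and the outer neighbours between -0.57 and 0.31.

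Other crystallin genes, as a list, had a median close to that of all features. Of 16 alpha-crystallin, beta-crystallin and crystallin-related genes, 9 were measured, 3 of these lay above 0, the median was -0.07, and 0 passed the limma test in either direction (2 of 9 at an unadjusted p under 0.05, beside 11.7% of all features). All features had a median of 0.02 beside it. Of the beta-crystallin genes listed, Cryba4 was measured, at -0.10 ± 0.22, while Cryba1, Cryba2, Crybb1, Crybb2 and Crybb3 did not pass the filter.

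The alpha-crystallins, small heat shock proteins that keep lens proteins soluble, had differences of opposite sign. Cryaa, the lens-restricted alpha-A gene, read -4.08 and -4.18 in haploid samples, against -3.65 and -3.38 in diploid samples, a difference of -0.62 ± 0.18 (limma adjusted p = 0.292), which shrank to -0.066 without background subtraction. Cryab, the alpha-B gene expressed in many tissues, read -0.64 and 0.77 in haploid samples, against -1.39 and -1.55 in diploid samples. Haploid replicate 2 stood 1.41 above haploid replicate 1, and the difference was 1.53 ± 0.43 (limma adjusted p = 0.263), or 0.83 without haploid replicate 2. The second Cryab probe read -4.29 and -2.61 in haploid samples, against -4.90 and -4.32 in diploid samples. Hspb2, another small heat shock gene and the divergent neighbour of Cryab, was likewise brightest on haploid replicate 2, at -3.01 and -1.53 in haploid samples, against -3.66 and -3.60 in diploid samples (1.36 ± 0.45, or 0.62 without haploid replicate 2 and -0.28 with normexp on all spots). The 6 measured gamma-crystallins showed no such gap, with at most 0.27 between the haploid arrays.

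Crygn, encoding gamma-N, a relative between the beta and gamma families, differed by -0.44 ± 0.24 (limma adjusted p = 0.520), with -4.47 and -3.92 in haploid samples, against -3.60 and -3.91 in diploid samples. It was at -0.16 without haploid replicate 1 and at -0.018 without background subtraction. Cryl1, an enzyme crystallin, differed by 0.43 ± 0.20 and Crym, a thyroid hormone binding protein, by 0.10 ± 0.18. Cryz and Cryzl1, of the quinone reductase family, differed by -0.01 ± 0.17 and -0.07 ± 0.20.

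Transcription factors known from lens development likewise had a median close to that of all features. Of 24 listed genes, 16 were measured, 10 lay above 0, the median was 0.10 and 0 passed the limma test (3 of 16 at an unadjusted p under 0.05, beside 11.7% of all features). Pax6, Maf, Prox1, Six3 and Hsf4, central factors of lens cells, did not pass the filter. Foxe3 and Pitx3, needed for the lens epithelium and fibres, differed by -0.09 ± 0.21 and 0.06 ± 0.28, and Sox1 by -0.26 ± 0.20. The genes whose groups did not overlap were Gata3 (1.02 ± 0.19), Meis2 and Meis1 (0.62 ± 0.20). Their sign flipped when normexp was fitted to all spots, to -0.55 for Gata3, -0.90 for Meis2 and -0.85 for Meis1. Gata3, which is also a trophectoderm factor, read -3.15 and -3.04 in haploid samples, against -3.96 and -4.27 in diploid samples (limma adjusted p = 0.139). Meis2 read -4.03 and -4.34 in haploid samples, against -4.63 and -5.14 in diploid samples, where neither array showed it well above background, so no fold is given (limma adjusted p = 0.334).

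Genes of lens fibre structure were mixed. Of 28 listed genes, 21 were measured, 12 lay above 0, the median was 0.09 and 0 passed the limma test (6 of 21 at an unadjusted p under 0.05, beside 11.7% of all features). Both haploid values lay above both diploid values in 8 of the 21, beside 26.0% of all features, and below them in 4. Mip, the water channel of fibre cells, differed by -0.05 ± 0.19, the beaded filament genes Bfsp1 and Bfsp2 by -0.31 ± 0.25 and 0.31 ± 0.25, and the connexin gene Gja3 by -0.61 ± 0.29. Gja3 was well above background on 1 of 2 haploid arrays, and its difference was -0.18 without haploid replicate 1, -1.03 without haploid replicate 2 and 0.0077 without background subtraction. Birc7 and Gja1 differed by 0.64 ± 0.30 and 0.65 ± 0.23, and Efna5 and Lenep by -0.71 ± 0.21 and -0.59 ± 0.19. Birc7 was at 0.20 without haploid replicate 2 and Gja1 at 0.36 without haploid replicate 1, and with normexp on all spots they were at -0.23 and -0.52. Without background subtraction Efna5 was at -0.18 and Lenep at -0.37. Lim2, a membrane protein of fibre cells, was well above background on 0 arrays.

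**Figure D4:**
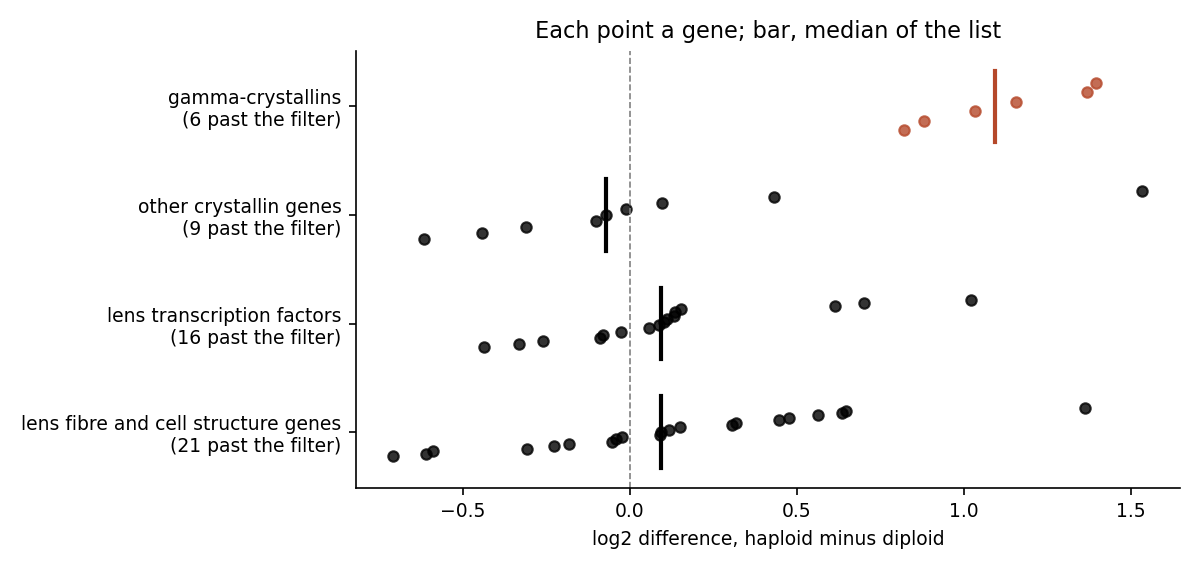
Log2 difference, haploid minus diploid, of each measured gene in the gamma-crystallin family (red) and in 3 lists of crystallin and lens genes (black), with a bar at each median. The gamma-crystallins lie between 0.82 and 1.40, while the medians of the other lists are -0.07, 0.10 and 0.09.

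The summed signal of marker genes for other cell types was compared between the same arrays. For 8 lens markers other than gamma-crystallins, the sum in units of the array's 75th percentile was 0.834 and 0.882 in haploid samples, against 0.848 and 0.810 in diploid samples, and 2 of 6 measured lay above 0. For 4 neuroectoderm markers it was 1.38 and 1.25 in haploid samples, against 1.06 and 1.23 in diploid samples, with 1 of 3 measured above 0. For 6 trophectoderm markers it was 7.22 and 6.98 in haploid samples, against 3.37 and 3.47 in diploid samples, with 3 of 4 measured above 0 and Elf5 well above background on 0 arrays. Krt18 made up 84.9% and 87.2% of that sum in haploid samples, against 80.2% and 72.7% in diploid samples, and differed by 1.23 ± 0.17. Krt8 differed by 1.15 ± 0.23 and Gata3 by 1.02 ± 0.19, but with normexp on all spots they were at 0.28 and -0.55. Eomes lay lower in haploid cells in value, at -0.43 ± 0.17, and Cdx2 did not pass the filter. For 7 fibroblast markers it was 11.2 and 8.57 in haploid samples, against 7.06 and 5.36 in diploid samples, with 4 of 7 above 0. Col1a2, Col1a1 and Thy1 together made up 88.4% and 89.9% of it in haploid samples, against 80.1% and 77.8% in diploid samples. They differed by 0.58 ± 0.27, 0.99 ± 0.31 (0.61 without haploid replicate 1) and 1.11 ± 0.31, and Postn by 0.61 ± 0.26. Col3a1 (-0.39 ± 0.32), Dcn (-0.38 ± 0.19) and Lum (-0.29 ± 0.31) had values of the opposite sign. In these 4 lists 0 markers passed the limma test. At an unadjusted p under 0.05 were 4 of 4 trophectoderm, 2 of 7 fibroblast, 1 of 6 lens and 0 of 3 neuroectoderm markers measured. The share over all features was 11.7%. The trophectoderm and fibroblast sums, each carried by a few bright genes, were thus higher in haploid samples, as were the gamma-crystallins. Levels of different probes cannot be set against each other, so these sums and shares weight genes by probe brightness. They do not measure the amount of a cell type. Among the other genes of these lists, Gata3 and Postn also lay higher, whereas Eomes, Col3a1, Dcn and Lum lay lower in value. The part of these genes in the gamma-crystallin difference was not tested.

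The genes with the most similar pattern were sought by the distance between log2 values centred over the 4 arrays and the mean centred profile of the 5 measured clustered genes. That profile was 0.50 and 0.66 in haploid samples, against -0.49 and -0.66 in diploid samples. The nearest named genes were Cdkn1c, an imprinted CDK inhibitor gene expressed from the maternal copy, at a distance of 0.07, and Lmo1, a LIM-domain cofactor gene, at 0.09. Sfxn3, a mitochondrial carrier gene, followed at 0.11, then Akr1c18, a progesterone-inactivating enzyme, and Fam163a, each at 0.13. Akr1c18 and Fam163a were dim, well above background on 1 of 2 diploid arrays. Their differences were 1.18 and 1.07, but -0.71 and -0.78 with normexp on all spots. Cdkn1c read -0.68 and -0.48 in haploid samples, against -1.71 and -1.80 in diploid samples. Among the members, Cryga lay at 0.06 from the profile, Cryge at 0.24, Crygd at 0.26, Crygc at 0.27 and Crygf at 0.37, and Crygs, which was not part of the profile, at 0.29. These distances rest on 4 arrays and rank genes by likeness only.

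How the differences held up across ways of processing the arrays was also examined. Of 17 other settings, 5 left every measured member at its reported difference, because they change only the filter, a floor below these signals or the model of the spread. Under 11 of the remaining 12, every measured member stayed above 0: Crygc between 1.23 and 1.56, Crygd between 1.21 and 1.51, Cryga between 0.89 and 1.23, Cryge between 0.81 and 1.26, Crygs between 0.70 and 1.03 and Crygf between 0.53 and 0.95. The exception was normexp background correction fitted to all spots. There Crygf was at -0.18 and Crygs at 0.02, with Cryga at 0.51, Cryge at 0.73, Crygd at 1.01 and Crygc at 1.18. On diploid replicate 2, 12 spots had a local background above 100 intensity units, against 0 on each other array. With those spots left out of the normexp fit, a choice made after seeing the data, Crygf was at 0.59 and Crygs at 0.70.

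**Figure D5:**
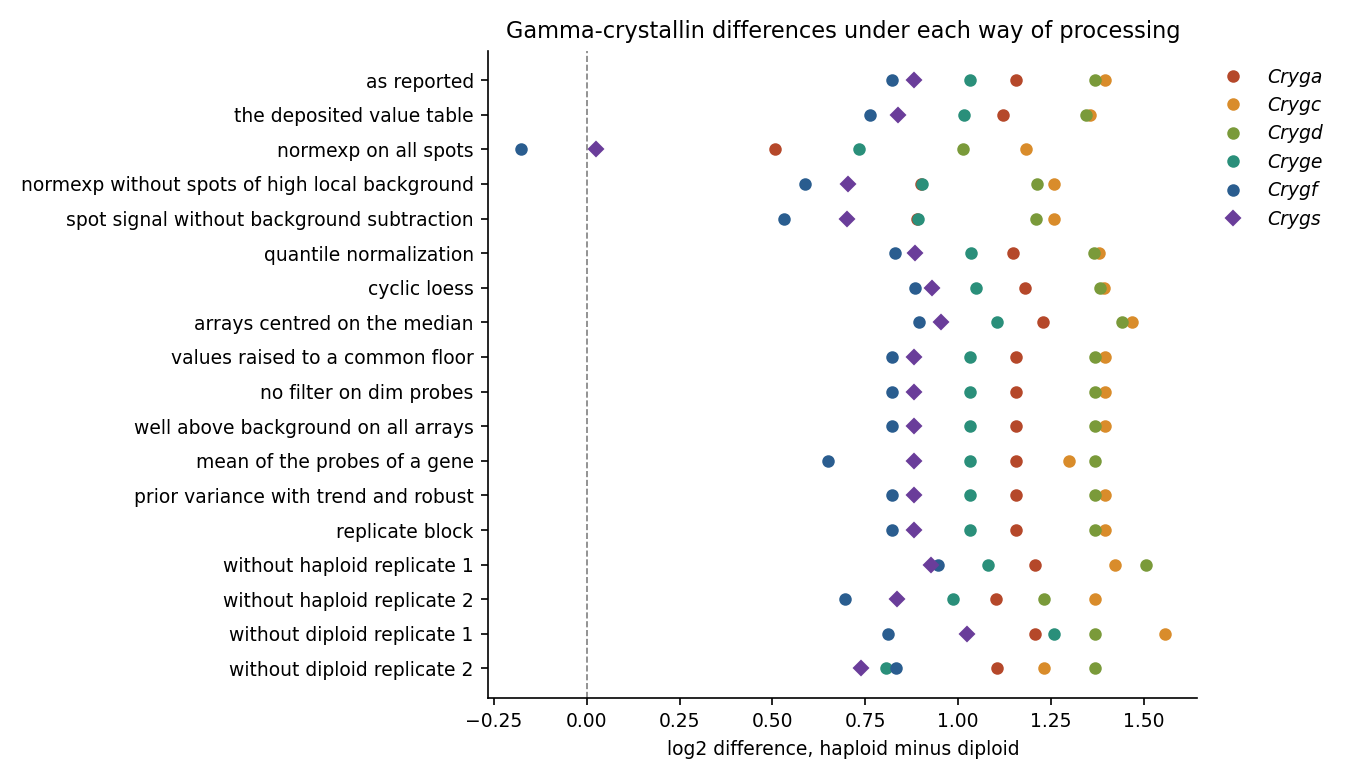
Log2 difference, haploid minus diploid, of the 6 measured gamma-crystallin genes (colours; Crygs as diamonds) under each way of processing the arrays, with the reported one on top. All points lie above 0 except Crygf at -0.18 with normexp on all spots.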

How the data were processed

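Gene expression was measured on 4 one-colour Agilent arrays on 1 slide. Per the labels' protocols, 0.2 ug of RNA was amplified and labelled with Cy3. The scanner files come, per the file headers, from Agilent Feature Extraction 11.0.1.1, with background-corrected signals as linear intensity and an array design on mm9. The value table the authors deposited also holds linear intensity, brought to nearly 1 distribution by a method not given in the sources used here (column medians 28.4, 28.3 in the haploid columns and 28.4 and 28.3 in the diploid columns), and served as an alternative.

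Control spots and outlier spots (121 to 168 of 43020) were left out, repeated spots averaged, and the log2 signal was scaled to each array's 75th percentile. Accessions were matched to RefSeq (assembly GRCm38.p6), which named 66.1% of probes. A gene's brightest probe past the filter stood for it. limma 3.58.1 (R 4.3.3, lmFit and eBayes, two-sided, Benjamini-Hochberg over 17962 features) gave differences and SE, and was tested on simulated data. The fit for single probes was added after seeing the data. Planned normexp used the median spot signal, the spot signal in these files. With 1 array left out, the same features were kept. Promoters were aligned with Biopython 1.88. The number of arrays limits the precision, and p-values measure only the spread between these samples.

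The members and the gene lists were chosen with earlier results of these data known. Genes named are the members, their neighbours, up to 6 genes per list whose groups did not overlap (largest differences first), 5 markers, and the 5 most alike genes. Other genes of the lists and further markers are named after their values were seen, by their known role.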

Additional observations from a re-analysis of the deposited data

How the results depend on the processing

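The median difference of the clustered gamma-crystallins, 1.16 as reported, was 0.73 with normexp on all spots, 0.90 with normexp once spots of high local background were left out, 0.89 with the spot signal without background subtraction, 1.23 with arrays centred on the median and 1.09 without a filter on dim probes, where Crygb enters. With 1 array left out it ran from 1.10 to 1.26. The count of features past the test, 20 as reported, was 4 with the deposited value table, 7 with quantile normalization, 0 with cyclic loess, with normexp on all spots, with a common floor and without a filter, 122 with normexp once spots of high local background were left out, 267 without background subtraction, 89 with arrays centred on the median, 82 with probes well above background on all arrays and 425 with eBayes using trend and robust fitting. With 1 array left out the count ran from 0 (without either diploid replicate) to 293 (226 without haploid replicate 1, 293 without haploid replicate 2), where the lone sample is assumed to vary like the other group. With the replicate number as a block it was 2. The numbers were not taken as pairs, because the labels do not say that lines of the same number share an origin. The deviations of same-numbered samples correlated at 0.05 across features, which cannot settle this with 2 samples per group. Measured members past the test numbered 0 as reported and from 0 to 5 under the other settings. The median of the other crystallins, -0.07 as reported, was -0.32 with normexp on all spots, -0.012 with normexp once spots of high local background were left out, -0.018 without background subtraction, 0.0013 with arrays centred on the median, 0.035 without a filter, and from -0.10 to -0.0052 with 1 array left out. With normexp on all spots the medians were -0.26 for lens transcription factors, -0.50 for lens structure genes and -0.46 for the cluster's neighbours, while all features had -0.10. The cause of these shifts was not tested. Of 673 values of single genes under other settings, 222 were exactly as reported, and of the other 451 values 368 moved by less than 1 SD between replicates.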

Other observations

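Named genes outside the family whose promoter window holds CTTTTGTG on either strand had the same median difference as all named genes with a window, to 2 decimals. Of 125 such genes measured, 53.6% lay above 0 in haploid minus diploid and their median difference was 0.02, beside 52.8% and 0.02 for all 10443 named genes with a promoter window. The limma test called 0 of the 125 genes (16 at an unadjusted p under 0.05, or 12.8%), and 8 of the 10443 (1203, or 11.5%). The run of letters was chosen from the gamma-crystallin promoters, and the comparison is a description.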
